A study of Mus musculus with 4 samples.

Results

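The 36 aminoacyl-tRNA synthetase genes examined here, 20 with cytosolic symbols and 16 whose symbols end in 2 and mark mitochondrial enzymes, were taken by gene name from a table of 23444 symbols, and all 36 were found. The table holds RNA-seq of fibroblasts sorted from the lungs of wild-type C57BL6 mice by Pdgfra, a receptor for platelet-derived growth factors. Each of 4 ages has 1 library; E16.5 and E18.5 are days of embryonic life, and P7 and P28 are days after birth. Values are FPKM, fragments per kilobase of transcript relative to the mapped fragments of the library, as deposited by the authors. With 1 library per age there is no spread between animals and no test, so each difference below is between libraries and is given by its size. The sort marker is a surface receptor and not a lineage label, and how many animals went into a library is not stated in the labels.

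Each aminoacyl-tRNA synthetase joins an amino acid to the tRNAs that carry it, and the ribosome relies on these charged tRNAs to read the code. Cytosolic translation and translation inside mitochondria use separate enzymes for most amino acids, and both sets are encoded in the nucleus. Gars and Kars are exceptions, because each gene supplies its enzyme to both compartments. In mammals the enzymes encoded by Eprs, Iars, Lars, Mars, Qars, Rars, Kars and Dars sit together in the multisynthetase complex. Many cytosolic synthetase genes are also known targets of the transcription factor ATF4, which acts when amino acids run short or proteins misfold.

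The labels were checked against markers first. Pdgfra was at 88.7 FPKM (E16.5), 95.9 (E18.5), 113 (P7) and 188 (P28), and none of the 7 fibroblast markers was listed at 0. Markers of other cells were detected at unequal levels. In order of age, the 5 endothelial markers summed to 13.5, 20.3, 593 and 151 FPKM, the 5 leukocyte markers to 1123, 54.7, 16.5 and 5064, the 5 epithelial markers to 31.3, 130, 42.7 and 29494, and the 5 erythroid markers to 5.88, 487, 21 and 1.65. No marker on these lists was listed at 0 in any library. The P28 leukocyte sum was almost all Lyz2, at 5062 FPKM, and Lyz2 is also made by alveolar epithelium. The other 4 leukocyte markers were highest at E16.5, with Tyrobp at 78.8 FPKM, Cd52 at 44.4, Coro1a at 29.6 and Ptprc at 15.4, and each was below 1 FPKM at P28. Of the epithelial genes, the surfactant gene Sftpc was at 10149 FPKM at P28 and the club cell gene Scgb1a1 at 19258. The 5 proliferation markers summed to 233, 22, 159 and 15 FPKM. The part that these cells have in the synthetase values was not tested, and in bulk RNA fewer cells of a type and less RNA per cell cannot be told apart.

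The E18.5 library also differed in scale. The median ratios over 7930 genes (1 FPKM or more everywhere) gave factors of 1.15 (E16.5), 0.581 (E18.5), 1.38 (P7) and 1.08 (P28). Dividing by them is called scaling here. Differences are on the log2(FPKM + 1) scale, later age minus earlier age, which understates the change of low genes. To be counted as higher or lower, a gene had to differ by at least 2-fold (1 on that scale) and to reach 5 FPKM in the library where it was higher.

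The cytosolic enzymes formed the abundant set. Eprs, the fused enzyme that charges both glutamate and proline tRNAs, led with a mean of 25.7 FPKM over the 4 libraries, followed by the asparaginyl enzyme Nars at 23.5 and the isoleucyl enzyme Iars at 16.7. The lowest cytosolic means were those of Cars, the cysteinyl enzyme, at 2.30 FPKM, and Farsa, the alpha subunit of the phenylalanyl enzyme, at 2.52. Among mitochondrial genes the mean was 991 FPKM for Lars2, the leucyl enzyme, 9.32 for the isoleucyl enzyme Iars2 and 6.72 for the tyrosyl enzyme Yars2. The prolyl enzyme Pars2, with 0.361 FPKM, and the glutamyl enzyme Ears2, with 0.454, were lowest. The median of the 20 cytosolic genes was 13.6 FPKM (E16.5), 5.01 (E18.5), 13.0 (P7) and 8.61 (P28). The median of the 15 mitochondrial genes other than Lars2 was 1.60, 0.703, 1.49 and 1.42 FPKM in the same order. Only Lars2, Iars2, Yars2 and the phenylalanyl enzyme Fars2 of the mitochondrial set reached 5 FPKM as deposited, so a count of differences is almost entirely a count of cytosolic genes.

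**Figure D1:**
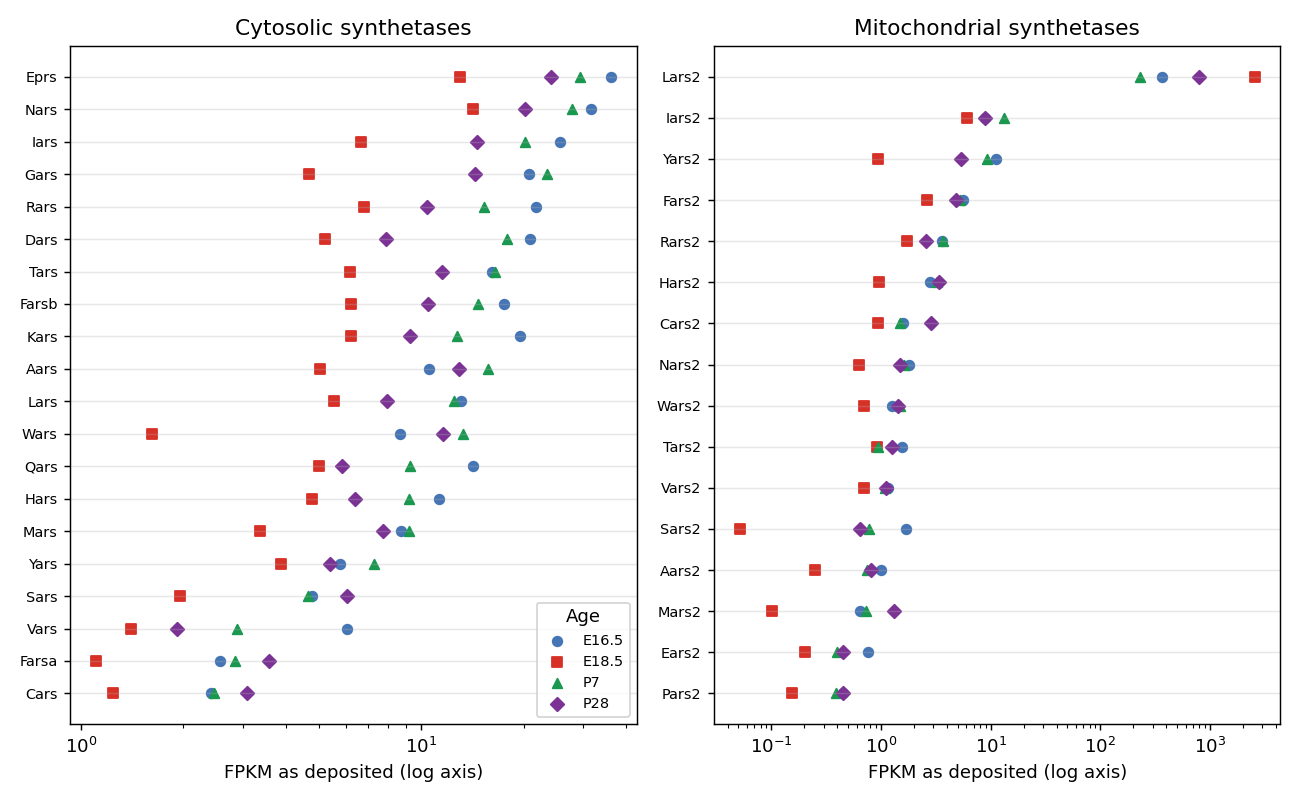
FPKM as deposited (log axis) of the 20 cytosolic (left) and 16 mitochondrial (right) synthetase genes, with 1 point per library at each age and genes ordered by mean. The E18.5 point is the lowest in every cytosolic row, and Lars2 at 2568 FPKM at E18.5 stands far above all other rows.

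Lars2 had values unlike those of any other synthetase gene. It was at 368 FPKM (E16.5), 2568 (E18.5), 231 (P7) and 797 (P28), and it ranked 52nd, 1st, 91st and 15th among all symbols. Its cytosolic counterpart Lars was at 13.1, 5.56, 12.5 and 7.93 FPKM, so that Lars2 stood 28.1, 462, 18.4 and 100.5 times above Lars. Lars2 made up 2.56% of the summed FPKM at E18.5, against 0.205% at E16.5. The log2 difference of E18.5 against E16.5 was 2.80 as deposited and 3.78 after scaling. Of the 7930 genes used for scaling, 5 others lay as far or farther above their next highest age at E18.5.

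Because the deposited level of Lars2 is so high, its transcript was searched for ribosomal RNA sequence. Lars2 lies on chromosome 9 of GRCm38, 123366927 to 123462666, plus strand, and its full-length transcript in GENCODE M21 has 3894 bases and a 3′ UTR that begins at base 2909. Against 354 ribosomal RNA and 2 mitochondrial ribosomal RNA transcripts of GENCODE M21, the longest alignment of any of its 9 transcripts covered 31 bases. Bases 3278 to 3349 of the full-length transcript, in the 3′ UTR of the last exon (chromosome 9, 123462048 to 123462119), matched a transcript of Gm15564 over 72 bases with 1 mismatch. A longer alignment joined bases 3163 to 3349, which include that stretch, to the transcript AA474408. It had a lower identity of 80.1% over 196 columns, with 5 mismatches and 3 gap openings. Gm15564, an antisense gene on chromosome 16, was on the list of ribosomal RNA-like entries drawn up from general knowledge. A stretch near the 3′ end of that match, which holds the mismatch, is shown because it is part of the match with Gm15564; capitals mark the mismatch.
Lars2, chr9:123462085-123462114, plus strand: ggaacgtgagctgggAttagaccgtcgtga
Gm15564, chr16:35981730-35981759, minus strand: ggaacgtgagctgggTttagaccgtcgtga

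The full cytosolic large-subunit ribosomal RNA was not used here, so how much of the Lars2 value comes from ribosomal RNA reads was not tested. Of the 18 entries on the ribosomal RNA-like list, 5 were in the table, namely Lars2, Gm20594, Zc3h7a, Cdk8 and Camk1d. Bases 1 to 432 of Gm20594 matched mt-Rnr2, the large mitochondrial ribosomal RNA, at 88.5% identity over 435 columns with gaps. Gm20594 was at 2255 FPKM (E16.5), 1802 (E18.5), 859 (P7) and 1611 (P28). The ratio of Lars2 to Gm20594 within a library was 0.163, 1.42, 0.269 and 0.495 in order of age, so the entries did not keep the same ratio. After scaling Gm20594, too, was highest at E18.5, at 3104 scaled FPKM. Zc3h7a was at 7.84, 3.97, 10.3 and 7.70 FPKM, Cdk8 at 13.8, 4.40, 12 and 13.4, and Camk1d at 4.6, 2.43, 2.02 and 0.282. As deposited, none of these last 3 entries was highest at E18.5; after scaling Camk1d was, at 4.18 scaled FPKM beside 4.01 at E16.5.

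**Figure D2:**
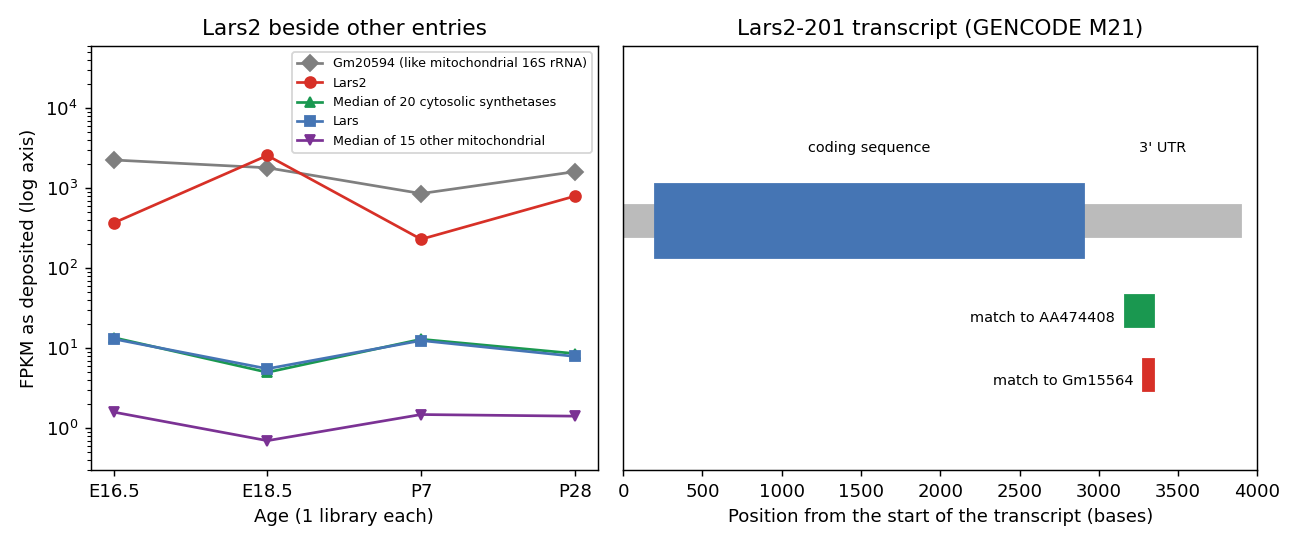
Left, FPKM as deposited (log axis) by age for Lars2, Gm20594, Lars and the medians of the 20 cytosolic and 15 other mitochondrial synthetase genes. Right, the full-length Lars2 transcript with its coding sequence (blue), UTRs (grey) and the stretches that match transcripts of AA474408 and Gm15564, by position from the transcript start. As deposited Lars2 alone of these lines peaks at E18.5, and both matches lie in the 3′ UTR.

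Levels of partner enzymes for the same amino acid were compared within a library, where the scale of the library cancels. In 14 of 17 pairings the cytosolic gene was above its mitochondrial partner at all ages. Leaving out Lars and Lars2, the median ratio of cytosolic to mitochondrial FPKM was 5.65 (E16.5), 4.54 (E18.5), 5.07 (P7) and 4.97 (P28). The ratio was widest for Eprs over Pars2, 53.6 to 83.5, and Eprs over Ears2, 47.1 to 73.3. Iars and Iars2 were close, with ratios of 2.87, 1.08, 1.52 and 1.63 in order of age, and so were Cars and Cars2, with 1.07 to 1.65.

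Tyrosine was an exception among these pairs. Yars, the cytosolic tyrosyl enzyme, was at 5.79, 3.86, 7.26 and 5.40 FPKM in order of age, and Yars2 was at 11.2, 0.945, 9.35 and 5.37 FPKM. Yars was thus 0.516 times Yars2 at E16.5, 4.08 times at E18.5, 0.777 times at P7 and level with it, at 1.01 times, at P28. Seryl enzymes also shifted, with Sars at 4.76, 1.95, 4.64 and 6.06 FPKM and Sars2 at 1.69, 0.0516, 0.772 and 0.645, a ratio of 2.81 at E16.5 and 37.9 at E18.5. How many reads stand behind the Sars2 value at E18.5 is unknown. Farsa and Farsb encode subunits of the same cytosolic phenylalanyl enzyme in equal numbers, yet Farsb was 6.81, 5.63, 5.17 and 2.94 times Farsa. Farsa was also below Fars2 at every age, with ratios of 0.422 to 0.728, and Farsb above it, with 2.14 to 3.15.

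**Figure D3:**
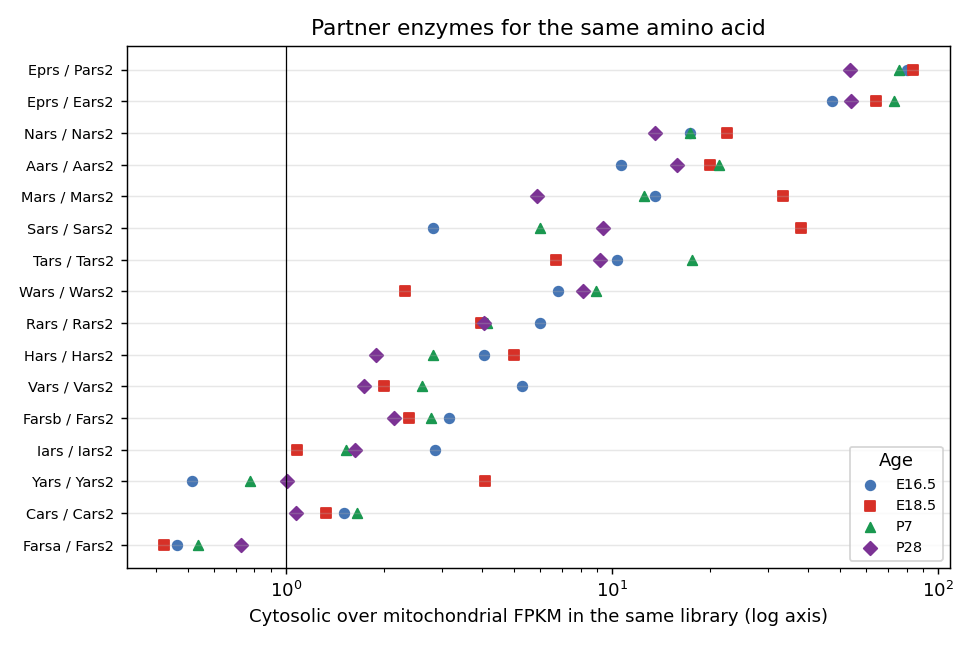
Ratio of cytosolic to mitochondrial FPKM within each library (log axis) for 16 pairings of synthetases that serve the same amino acid, Lars and Lars2 left out; colours and shapes give the age. Most points lie right of the line at 1, Yars / Yars2 lies on both sides of it and Farsa / Fars2 lies left of it.

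E18.5 was set against E16.5 for the days before birth. As deposited, 16 of the 21 synthetase genes that reached 5 FPKM in either library were lower at E18.5, of 36 in all, while 47.4% of all genes that reached this level were lower. Lars2 was the 1 gene higher, where 2.32% of all genes were higher. After scaling, Gars, Wars and Yars2 remained lower and Lars2 higher among 20 that reached the level, beside 12.2% and 9.34% of all genes. Yars2 was at 0.945 FPKM at E18.5, against 11.2 at E16.5, log2 differences of -2.65 as deposited and -2.04 after scaling. Wars, the tryptophanyl enzyme, which interferon gamma induces in many cell types, was at 1.61 FPKM at E18.5, against 8.66 at E16.5 (-1.89 and -1.18). Gars, the glycyl enzyme, was at 4.69 FPKM at E18.5, against 20.8 at E16.5 (-1.94 and -1.07). Dars, the aspartyl enzyme, just missed the threshold after scaling at -0.95, with 5.21 FPKM at E18.5, against 20.9 at E16.5. Iars2 stood the other way after scaling, at 0.41, with 6.16 FPKM at E18.5 and 8.90 at E16.5. The median log2 difference of the 20 cytosolic genes was -1.30 as deposited and -0.42 after scaling; for all genes that reached 5 FPKM the median was -0.96 and -0.02.

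P7 was set against E18.5 to span birth. As deposited, 12 of 20 synthetase genes that reached 5 FPKM were higher at P7, beside 63.3% of all genes, and Lars2 was lower, beside 2.89%. After scaling, Wars and Yars2 were higher and Lars2 lower among 19 that reached the level, beside 14.7% and 12% of all genes. Wars was at 13.3 FPKM at P7, against 1.61 at E18.5, with log2 differences of 2.45 as deposited and 1.49 after scaling. Yars2 was at 9.35 FPKM at P7, against 0.945 at E18.5 (2.41 and 1.57). Gars was at 23.5 FPKM at P7, against 4.69 at E18.5, a difference of 0.99 after scaling. Lars2 was at 231 FPKM at P7, against 2568 at E18.5 (-3.47 and -4.71). The glutaminyl enzyme Qars had a difference of 0.78 as deposited and -0.31 after scaling, with 9.29 FPKM at P7 and 4.995 at E18.5.

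P28 was set against P7 for the close of alveolar growth, and few synthetase genes passed the threshold. As deposited, Lars2 was higher and Dars lower among 21 that reached 5 FPKM, beside 10.5% and 16.9% of all genes. After scaling Lars2 alone was counted, as 1 higher of 20, beside 14.6% higher and 10.3% lower of all genes. Lars2 was at 797 FPKM at P28, against 231 at P7 (1.78 as deposited and 2.13 after scaling). Dars was at 7.90 FPKM at P28, against 17.8 at P7, log2 differences of -1.08 as deposited and -0.75 after scaling. Sars had a difference of 0.32 as deposited and 0.60 after scaling.

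P7 against E16.5, and P28 against E16.5, leave out the E18.5 library; both comparisons share the E16.5 library. At P7 none of 21 synthetase genes that reached 5 FPKM was 2-fold apart from E16.5 as deposited, where 15.7% of all genes were higher and 6.68% lower. After scaling none was higher, beside 12.3% of all genes, and the valyl enzyme Vars was lower, beside 9.62%, with 2.87 FPKM at P7 and 6.06 at E16.5 (-0.87 as deposited and -1.03 after scaling). Wars, at 0.31 after scaling, and the alanyl enzyme Aars, at 0.28, with 15.7 FPKM at P7 and 10.5 at E16.5, were among the highest. At P28, Dars, Qars, Vars and the arginyl enzyme Rars were lower than at E16.5 as deposited among 22 that reached 5 FPKM, and Lars2 was higher, beside 16.9% and 18% of all genes. After scaling, Dars, Qars and Vars were lower and Lars2 higher among 21 that reached it, beside 15% and 19.7%. Lars2 was at 797 FPKM at P28, against 368 at E16.5 (1.11 and 1.2). Dars was at 7.90 FPKM at P28, against 20.9 at E16.5 (-1.30 and -1.21). Vars was at 1.92 FPKM at P28, against 6.06 at E16.5 (-1.27 and -1.18). Qars was at 5.86 FPKM at P28, against 14.2 at E16.5 (-1.15 and -1.05). Rars was at 10.4 FPKM at P28, against 21.8 at E16.5 (-1.0 and -0.91). Kars, the lysyl enzyme, just missed the threshold as deposited, with 9.28 FPKM at P28 and 19.5 at E16.5. Epithelial markers were far higher at P28, as given above, and their part in these differences was not tested.

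Across the course, cytosolic synthetase genes tended to be highest at the earliest age once scale was removed. After scaling, 14 of the 18 cytosolic genes at 5 FPKM or more in some library, of 20 in all, were highest at E16.5, where 25.7% of all genes at this level were. As deposited the count was 11 of 18, beside 27% of all genes. The proliferation markers and 4 of the 5 leukocyte markers were highest at E16.5 too, as given above, and their part in this was not tested. Farsb, Kars, Lars, Qars, Rars, Vars, the histidyl enzyme Hars and Nars, 8 of the 18, were lower at each successive age after scaling, beside 6.28% of all genes. Between E18.5 and P7 the fall was slight for some of these 8, with log2 differences of -0.01 for Farsb and -0.07 for Lars and Rars. Scaling by the total without ribosomal RNA-like entries turned this step upward for Farsb (0.2), Lars and Rars (0.14 each) and Kars (0.02). A fall at every age in these 4 thus depends on the scaling chosen. For Hars, Nars, Qars and Vars this step was not set out with that total. As deposited 0 of 18 were lower at each successive age, beside 2.74%. On that scale 21 of 22 synthetase genes, all but Lars2, were lowest at E18.5, beside 72.8% of all genes, and 0 at P28, beside 13.5%. Highest at P7 were 7 of the 22, beside 46.3%, at P28 Sars alone, beside 24.3%, and at E18.5 Lars2 alone, beside 2.38%; 0 were higher at each successive age, beside 3.36%. Qars, for example, was at 12.4, 8.60, 6.74 and 5.43 scaled FPKM, and Rars at 19.0, 11.7, 11.1 and 9.64. In contrast Aars, Sars and Wars were highest at P28 after scaling, with Wars at 7.55, 2.78, 9.63 and 10.7 scaled FPKM and Aars at 9.18, 8.66, 11.4 and 11.95. In all, 3 of 21 synthetase genes at this level were highest at P28 after scaling, beside 29.9% of all genes, 3 at E18.5 (Yars, Iars2 and Lars2), beside 23.8%, and 0 at P7, beside 20.5%. None was higher at each successive age, beside 6.8%, and 10 were lowest at P28, beside 29%. Yars was highest at E18.5, at 6.65 scaled FPKM, beside 5.05, 5.27 and 5.003 at E16.5, P7 and P28.

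All 8 enzymes of the multisynthetase complex were highest at E16.5 after scaling, beside 25.7% of all genes. So were 6 of the 10 other cytosolic genes that reached 5 FPKM. As deposited 7 of the 8 and 4 of the 10 were highest at E16.5, beside 27% of all genes. Mars was highest at P7 on that scale. After scaling the median log2 differences of these 8 were -0.55 (E18.5 against E16.5), -0.56 (P7 against E16.5) and -0.80 (P28 against E16.5). For the 12 cytosolic genes outside the complex they were -0.24, -0.19 and -0.19. These 12 include low genes, whose differences the added 1 FPKM holds near 0. For those of the 12 that reached 5 FPKM the medians were -0.38, -0.22 and -0.39. Mars, the methionyl enzyme of the complex, was closest to level, at 8.70, 3.36, 9.19 and 7.74 FPKM as deposited and 7.58, 5.78, 6.67 and 7.18 scaled. Kars was at 19.5, 6.21, 12.7 and 9.28 FPKM. Aimp1, a scaffold protein of the complex, was at 19.8, 7.03, 14.4 and 8.21 FPKM and was lower at P28 than at E16.5 on both scales. The scaffold Aimp2 was at 5.25, 0.925, 3.70 and 5.42 FPKM, and Eef1e1, the scaffold related to elongation factor subunits, at 4.49, 1.49, 2.67 and 2.52.

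**Figure D4:**
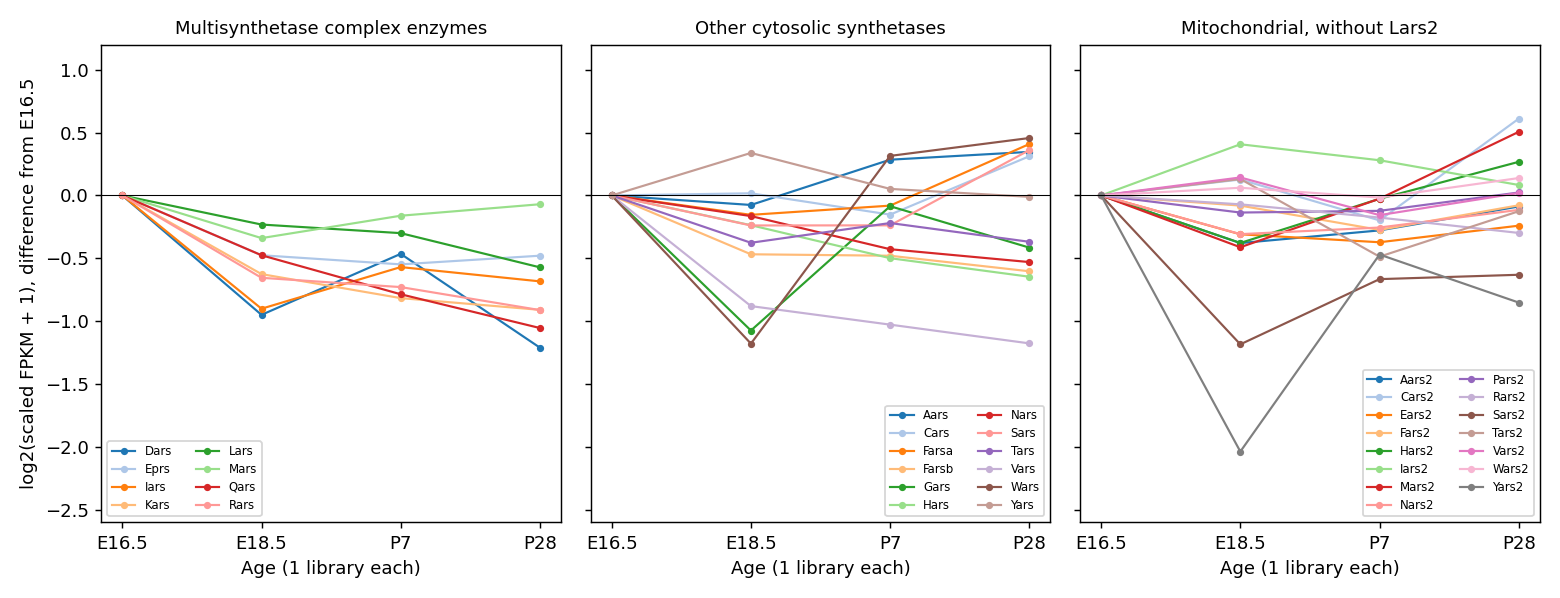
Log2(scaled FPKM + 1) of each synthetase gene as its difference from the E16.5 library, for the 8 multisynthetase complex enzymes (left), the other 12 cytosolic genes (middle) and the 15 mitochondrial genes other than Lars2 (right); 1 library per age. All lines on the left lie below 0 after E16.5, while Wars, Gars and Yars2 dip at E18.5 and lie higher again at P7.

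The mitochondrial genes other than Lars2 were summarised by their median log2 differences. After scaling these were -0.14 (E18.5 against E16.5), -0.06 (P7 against E18.5), 0.16 (P28 against P7) and -0.08 (P28 against E16.5). As deposited they were -0.58, 0.66, 0.01 and -0.13. The corresponding medians of the 20 cytosolic genes were -0.42, -0.04, -0.11 and -0.50 after scaling and -1.30, 1.05, -0.43 and -0.59 as deposited. The added pseudocount holds the differences of low genes near 0, and as a plain ratio some mitochondrial genes varied more. The highest scaled FPKM was 16.6 times the lowest for Sars2, 7.02 times for Mars2 and 6.01 times for Yars2. Among cytosolic genes it was at most 3.87 times, for Wars. The lowest values were at E18.5, at 0.0516 FPKM for Sars2, 0.101 for Mars2 and 0.945 for Yars2 as deposited. How many reads stand behind such low values is unknown, so these ratios are uncertain. Fars2 was at 5.55, 2.62, 5.27 and 4.89 FPKM, the arginyl enzyme Rars2 at 3.62, 1.72, 3.69 and 2.57, and the histidyl enzyme Hars2 at 2.79, 0.952, 3.26 and 3.38. Aars2, Ears2, Pars2 and the methionyl enzyme Mars2 were at most at 1.31 FPKM, the value of Mars2 at P28; its other values were 0.644, 0.101 and 0.735 FPKM at E16.5, E18.5 and P7. Of the accessory genes of mitochondrial tRNA charging, Gatc, a subunit of the amidotransferase that makes glutaminyl-tRNA in mitochondria, was at 10.6, 5.90, 12.5 and 7.97 FPKM. Of 10 mitochondrial translation factors, 3 reached 5 FPKM. After scaling none was 2-fold apart in any of the 5 comparisons, where 9.34% to 19.7% of all genes were higher and 9.62% to 15% lower. As deposited the elongation factors Tufm and Gfm1 were lower at E18.5 than at E16.5, beside 47.4% of all genes. Gfm1 was also higher at P7 than at E18.5 on that scale, beside 63.3%. It had the highest mean of the 10 factors, with 12.2, 5.10, 14.1 and 8.90 FPKM. The initiation factor Mtif2 was above Gfm1 at E18.5, at 5.85.

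Among cytosolic genes, the course was set out for known ATF4 targets and for genes not on that list; the difference between the lists was not tested. After scaling, 7 of the 8 cytosolic genes off the list reached 5 FPKM. All 7 (Dars, Farsb, Hars, Kars, Qars, Rars and Vars) were highest at E16.5 and lowest at P28. Of 11 listed targets that reached 5 FPKM, 7 were highest at E16.5 and 3 were lowest at P28. Of all genes at this level 25.7% were highest at E16.5 and 29% lowest at P28. Lowest at E18.5 were 7 of the 11 targets (Aars, Gars, Iars, Mars, Sars, Tars and Wars), beside 26.7% of all genes. As deposited all 18 of these genes were lowest at E18.5, beside 72.8% of all genes. On that scale 4 of the 11 targets and 7 of the 7 others were highest at E16.5, beside 27%. The median log2 difference of P28 against E16.5 after scaling was -0.22 for the 12 targets and -0.91 for the other 8. For the genes that reached 5 FPKM the medians were -0.37 and -0.91. Cars among the targets and Farsa among the others stayed below that level in every library. Dars, Kars, Qars and Rars, which are off the list, are also enzymes of the multisynthetase complex, so the 2 groupings overlap.

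Promoter sequence was compared because ATF4 is known to bind CEBP-ATF response elements. Windows of 250 bases before to 50 after the RefSeq start (GRCm38.p6) were found for 27 of the 36 genes. The element, searched as TGATGNAA on both strands, was present for 5 of them, Aars, Gars, Iars, Tars and Yars, or 18.5%, beside 4.51% of 27025 genes with a window. All 5 are on the ATF4 target list, where 8 genes had a window, and 0 of 14 mitochondrial genes with a window held it. The E-box CACGTG, searched likewise, was present for Aars, Farsb, Iars, Tars and Ears2, beside 8.09% of all genes. The elements are shown with 20 bases on each side, in the direction of transcription, with the match in capitals. Aars holds it at 2 places, the second after the start, as are those of Iars and Yars. A match is a description and not evidence of binding.
Aars, chr8:111033710-111033757, plus strand: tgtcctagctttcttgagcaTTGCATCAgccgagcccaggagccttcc
Aars, chr8:111033831-111033878, plus strand: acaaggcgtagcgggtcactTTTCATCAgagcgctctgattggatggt
Gars, chr6:55037951-55037998, plus strand: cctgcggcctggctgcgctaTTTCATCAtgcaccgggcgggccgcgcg
Iars, chr13:49682117-49682164, plus strand: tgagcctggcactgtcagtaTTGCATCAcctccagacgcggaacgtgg
Tars, chr15:11399646-11399693, minus strand: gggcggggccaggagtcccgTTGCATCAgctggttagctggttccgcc
Yars, chr4:129189886-129189933, plus strand: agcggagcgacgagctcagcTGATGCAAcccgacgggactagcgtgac

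The courses of the 5 genes that hold the element were set out. After scaling Aars, Gars, Iars and Tars were lowest at E18.5, beside 26.7% of all genes, while Yars was highest there. Tars was nearly as low at P28. Of the listed targets with a window and no element, Mars and Sars were lowest at E18.5 too, and Eprs was lowest at P7. As deposited all 5 were lowest at E18.5, beside 72.8%. The age at which they were highest after scaling differed, and a link of the element to any course was not tested. Tars, the threonyl enzyme, was at 14.1, 10.6, 11.9 and 10.7 scaled FPKM in order of age and Iars at 22.3, 11.5, 14.7 and 13.5, while Yars and Aars took the courses given above. Gars was at 18.1, 8.08, 17.0 and 13.3 scaled FPKM.

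Other genes of the ATF4 pathway were also set out. Atf4 itself was at 49.9, 31.6, 34.1 and 41.6 FPKM as deposited, and it was highest at E18.5 after scaling, at 54.4 beside 43.5, 24.8 and 38.6. At E18.5 against E16.5, the serine synthesis gene Psat1, the folate enzyme Shmt2, the proline synthesis gene Aldh18a1 and the amino acid transporter gene Slc7a5 were lower on both scales, and the stress gene Nupr1 was higher. After scaling, 4 of the 16 pathway genes that reached 5 FPKM, of 31 listed, were lower, beside 12.2% of all genes, and 3 (Ddit3, Ddit4 and Nupr1) were higher, beside 9.34%. As deposited 6 of 15 were lower and 1 higher, beside 47.4% and 2.32%. Psat1 was at 41.0, 5.70, 19.7 and 3.56 FPKM in order of age and Shmt2 at 15.4, 2.54, 8.89 and 4.40. Aldh18a1 was at 10.6, 2.07, 7.79 and 3.96 FPKM, Slc7a5 at 6.86, 0.637, 3.41 and 1.44, and Nupr1 at 6.37, 13.9, 15.7 and 72.7. The amino acid transporter gene Slc38a2 had the highest mean of the list, with 58.0, 38.8, 52.8 and 45.1 FPKM, though Nupr1 was above it at P28. At P7 against E18.5, 7 of 15 that reached 5 FPKM after scaling were lower (Atf4, Atf5, Cebpb, Ddit3, Ddit4, Nupr1 and Ppp1r15a) and 0 higher, beside 12% and 14.7% of all genes. As deposited 3 of 14 were lower and 4 higher, beside 2.89% and 63.3%. Cebpb, Ddit3 and Ddit4, which respond to stress, were lower on both scales; Ddit3, which encodes the factor CHOP, was at 2.95 FPKM at P7, against 14.2 at E18.5, and Ddit4 at 1.62, against 5.24. At P28 against P7, Psat1 was lower on both scales and Atf5, Cebpb, Ddit3, Nupr1 and Vldlr were higher. After scaling the counts were 1 lower and 6 higher of 14, beside 10.3% and 14.6% of all genes, and as deposited 1 and 6 of 15, beside 16.9% and 10.5%. Atf5, a factor related to ATF4, was at 2.68, 3.21, 1.63 and 13.7 FPKM, Cebpb at 9.42, 7.78, 2.46 and 7.48, and Vldlr, a lipoprotein receptor gene, at 6.09, 4.59, 6.34 and 17.0. At P28 against E16.5, Psat1, Shmt2, Aldh18a1 and Slc7a5 were lower and Atf5, Nupr1 and Vldlr higher on both scales, 4 and 3 of 15 that reached 5 FPKM after scaling, beside 15% and 19.7% of all genes. These same 4 genes were thus low at both E18.5 and P28 beside E16.5, whose library both comparisons share. At P7 against E16.5, 5 of 14 that reached 5 FPKM after scaling were lower (Cebpb, Ddit3, Ppp1r15a, Psat1 and Slc7a5) and 0 higher. The shares of all genes were 9.62% and 12.3%. As deposited 2 of 14 were lower (Cebpb and Psat1) and 1 higher (Nupr1), beside 6.68% and 15.7%. After scaling Shmt2 stood at -0.95 and Aldh18a1 at -0.62. That comparison shares the E16.5 library too. Ddit3 overlaps Mars on the opposite strand, and no source used here says whether reads were counted by strand.

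The annotation marks further genes whose reads may be shared. Exons of 13 of the 36 genes overlap another gene on the opposite strand in GENCODE M21, among them Hars with Hars2, Cars with Gm15580, and Iars2 with Rab3gap2. Aars shares exons with Exosc6 on its own strand. Iars has a processed pseudogene, Gm4849, which matches it at 96.0% over 1656 bases, so its values are less certain than those of Eprs or Kars.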

How the data were processed

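RNA of 4 libraries was analysed from 1 deposited table. FPKM were computed by the authors, per the file header; TopHat, TopHat2 2.0.9 and the builds GRCm38 and mm10 are listed with no role or order, per the submitters' processing notes. The software behind the FPKM, its annotation and its handling of strand and multiply mapped reads are not given in the sources used here. Total RNA, the Verso cDNA kit and Nextera XT libraries were used, per the labels' protocols. FPKM keep no read totals, so depth and counting error are unknown.

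The 23931 entries were summed by symbol; each synthetase gene had 1 entry. Values were used as deposited and after median-ratio scaling. No test was possible with 1 library per age. Counts used log2(FPKM + 1), a 2-fold threshold and 5 FPKM in the higher library; background shares are over all genes that reached it. The code was tested on simulated data. The members and lists were chosen with earlier results of these data known. All members could be named; full values went to the most and least abundant, those counted on both scales, the extremes of each comparison and their partners. Alternatives were pseudocounts of 0.1 and 5, no minimum and 20 FPKM, 3 other scalings and the largest entry per symbol. Promoters came from RefSeq (GRCm38.p6), coordinates and transcripts from GENCODE M21 (GRCm38). Transcripts were aligned with BLAST 2.17.0, with word size 7 for Lars2 and the default for Gm20594. Copies of synthetase transcripts were sought with its megablast mode, at 90% identity or more over at least 300 bases. Python 3.11.15, numpy 2.4.6, pandas 2.3.3 and matplotlib 3.10.9 were used.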

Additional observations from a re-analysis of the deposited data

How the results depend on the processing

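Counts that involve E18.5 changed most with scale, and this is the library whose factor was 0.581, against 1.08 to 1.38 for the other ages. Genes lower at E18.5 than at E16.5 numbered 16 as deposited, 9 with a pseudocount of 5, 6 at a minimum of 20 FPKM, 3 with median-ratio or upper-quartile scaling, and 4 with the total taken without ribosomal RNA-like entries. Genes higher at P7 than at E18.5 numbered 12 as deposited and 6, 3, 2, 2 and 3 under the same alternatives in the same order. Of these 12, Eprs, Farsb, Lars and Rars changed sign with both scalings. They came to -0.07, -0.01, -0.07 and -0.07 with median-ratio scaling and -0.18, -0.11, -0.17 and -0.17 with upper-quartile scaling. Hars, Kars, Nars, Qars, Yars, Fars2 and Iars2 reached 5 FPKM but were not counted as deposited. They also changed sign with median-ratio scaling, to -0.26, -0.19, -0.26, -0.31, -0.29, -0.19 and -0.13. The 1 gene lower at P28 than at P7, Dars, gave 0 with a pseudocount of 5, a minimum of 20 FPKM, and median-ratio or upper-quartile scaling. Genes lower at P7 than at E16.5 numbered 0 as deposited, 1 with a pseudocount of 0.1 or median-ratio scaling, and 2 with upper-quartile scaling. Genes lower at P28 than at E16.5 numbered 4 as deposited, 1 with a pseudocount of 5, 2 at 20 FPKM and 7 with the total without ribosomal RNA-like entries, where the count of higher genes was 0 in place of 1. Median-ratio scaling estimated without E18.5 was chosen after seeing the data. It gave 0 genes lower and 1 higher, Lars2, for P28 against P7, and 1 lower for P7 against E16.5. A stricter minimum leaves fewer genes by construction; for the other changes the cause was not tested. No paired analysis was possible because each age has 1 library.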

Other observations

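Synthetase-like and tRNA quality genes were also measured. Aarsd1, which edits wrongly charged alanyl-tRNA, was at 9.94 FPKM (E16.5), 1.78 (E18.5), 8.31 (P7) and 6.60 (P28), and it was lower at E18.5 than at E16.5 on both scales. Of the 8 such genes 2 reached 5 FPKM; 2 of these were lower as deposited and 1 after scaling, beside 47.4% and 12.2% of all genes. Dtd1, a D-aminoacyl-tRNA deacylase, was at 11.5, 2.74, 11.6 and 18.6 FPKM. Of the 4 kinases that act on eIF2alpha, the heme-regulated Eif2ak1 was the most abundant, at 13.6, 4.65, 16.3 and 14.7 FPKM. Only Eif2ak1 and Eif2ak2 reached 5 FPKM. After scaling neither was 2-fold apart in any of the 5 comparisons, where 9.34% to 19.7% of all genes were higher and 9.62% to 15% lower. As deposited Eif2ak1 was lower at E18.5 than at E16.5, beside 47.4% of all genes. On that scale Eif2ak1 and Eif2ak2 were higher at P7 than at E18.5, beside 63.3%.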
